A study of Mus musculus with 7 samples.

Results

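The RNA of the mouse prefrontal cortex was compared between animals given the reference C allele of the human long noncoding RNA PAXIP1-AS1 and animals given an empty vector. The comparison rested on 2 libraries of the C allele (Ref) and 3 of the empty vector (Ctr), 5 of the 7 libraries of the series, and asked which genes differ when the C allele transcript is present. A gene was counted as higher or lower when both Ref libraries lay beyond all 3 Ctr libraries and the unadjusted p of the edgeR fit was under 0.05.

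All groups were female C57BL/6 wild-type mice that received recombinant adeno-associated virus in the prefrontal cortex of both hemispheres, and all vectors carried EGFP under the neuronal human synapsin promoter. Ref animals received rAAV-PAXIP1-AS1-C, Ctr animals the empty rAAV, and the 2 remaining libraries came from animals given the G allele (Alt). The age of the mice, the number of animals behind a library and whether replicates were separate animals are not given in the sources used here, so p-values measure only the spread between these libraries. The level of the human transcript itself was not analysed here, so the labels were not checked by the transgene. In bulk tissue, fewer cells of a type and less RNA per cell cannot be told apart.

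Prefrontal cortex RNA is a mixture from excitatory and inhibitory neurons, astrocytes, oligodendrocytes, microglia and vessel cells. Oligodendrocytes wrap axons in myelin and express its structural proteins under the transcription factor Myrf. Neurons switch on immediate early genes after electrical activity, and glucocorticoid hormones, through the receptor encoded by Nr3c1, switch on genes such as Fkbp5 in many brain cell types. These groups of genes are described first.

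Library totals lay between 19382848 and 20750857 counts in Ctr and were 19731791 and 19801971 in Ref, so depth was even. Of 16622 genes tested, 0 (0.0%) passed an adjusted p of 0.05 in edgeR, where the smallest adjusted p was 0.0967. At an unadjusted p under 0.05 edgeR gave 952 genes (5.73%), of which 536 were higher in Ref (3.22%) and 416 lower (2.5%), and DESeq2 gave 22 at its own adjusted p under 0.05 among the 11788 genes to which it assigned one (0.187%). Both Ref libraries lay above all 3 Ctr libraries in 1878 genes (11.3%) and below them in 2031 (12.2%). With the p added, 498 genes were higher (3.0%) and 384 lower (2.31%), and these shares are the background for every count below. A gene length correction, which moved the median of all genes from -0.01 to -0.06, gave 440 higher and 850 lower genes at p under 0.05. Before it, the Spearman correlation of log2 fold change with gene length was 0.037. With 2 libraries against 3, an exact permutation test of one gene cannot go under 0.2 two-sided or 0.1 one-sided.

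**Figure D1:**
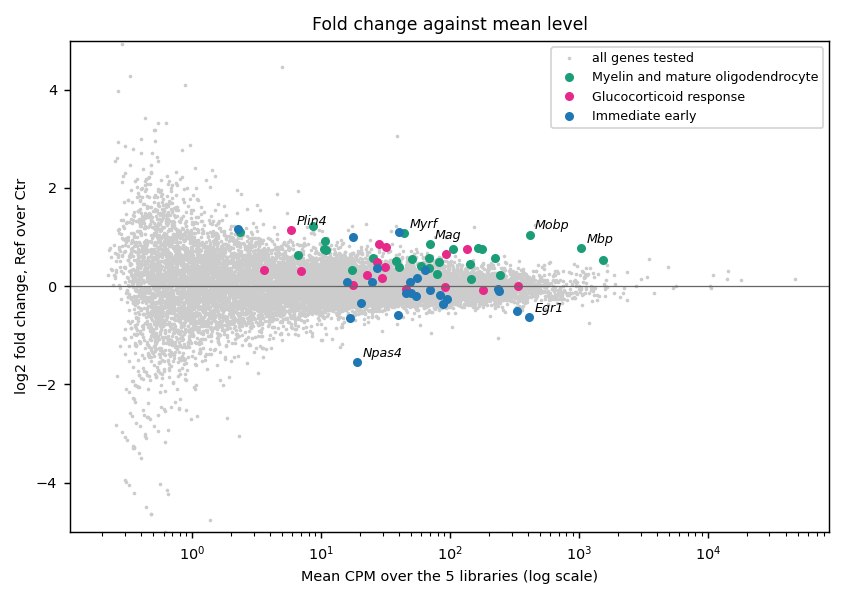
Each grey point is 1 of the 16622 genes, with its mean CPM over the 5 libraries on a log scale (x) and its log2 fold change of Ref over Ctr (y); 17 genes beyond a log2 change of 5 are outside the frame. Myelin genes all lie above 0, the immediate early genes lie on both sides, and Npas4 is the lowest of the coloured points.

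Of the 31 gene lists examined, the myelin list held the largest share of genes higher in Ref, 60.7% against 53.3% for the astrocyte list. Without the p, the astrocyte list had the larger share above all Ctr libraries, 73.3% against 67.9%. Of 28 genes of myelin and mature oligodendrocytes, 17 were higher, 0 were lower, and all 28 had a positive log2 fold change, with a median of 0.57 against -0.01 over all genes tested. Mbp, which encodes myelin basic protein, had 830, 837 and 760 normalised read counts (CPM, counts scaled to library size) in the Ctr libraries and 1353 and 1405 in the Ref libraries. Mobp, another basic protein of the myelin sheath, had 254, 361 and 256 CPM in Ctr and 538 and 660 in Ref. Myrf, the transcription factor that drives myelin genes, had 28.7, 34.3 and 29.0 CPM in Ctr and 59.1 and 70.4 in Ref. In all 3 genes both Ref libraries were well above the highest Ctr library. The log2 fold changes were 0.77 ± 0.12 (SE) for Mbp, 1.05 ± 0.17 for Mobp and 1.08 ± 0.16 for Myrf. The edgeR adjusted p was 0.0967 for each of them, and the DESeq2 adjusted p was 2.64e-07, 2.69e-06 and 4.24e-06.

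Further genes of the myelin sheath were higher in both Ref libraries. Mag, which encodes myelin-associated glycoprotein, had 51.4, 55.0 and 51.0 CPM in Ctr and 98.3 and 91.5 in Ref, a log2 fold change of 0.85 ± 0.14 (edgeR adjusted p = 0.0967). Cnp, a phosphodiesterase of the myelin sheath, had 136, 163 and 120 CPM in Ctr and 221 and 248 in Ref. Cldn11, the tight junction protein of myelin, had 77.4, 104 and 66.3 CPM in Ctr and 126 and 152 in Ref. None of these 3 genes overlapped between groups. Nkx6-2, a homeodomain factor of oligodendrocytes, showed the largest log2 fold change of the list, 1.22 ± 0.28. Opalin (0.93 ± 0.24), Mal (0.78 ± 0.22) and Hapln2, a link protein of the node of Ranvier (0.75 ± 0.25), were also higher. Further higher members were Trf, Fa2h, Septin4, Gsn, Bcas1 and Cryab, at log2 fold changes between 0.40 and 0.57.

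Not every myelin gene separated the groups. Mog, a glycoprotein of the outer myelin surface, had 32.5, 42.6 and 22.9 CPM in Ctr and 39.7 and 53.3 in Ref, so Ctr 2 lay above Ref 1. Ctr 2 also lay above Ref 1 for Ermn, Tspan2, Aspa and Ugt8a. Across the list, the summed level was 3725, 4767 and 3540 CPM in Ctr and 5537 and 6801 in Ref, so Ctr 2 was the highest Ctr library and Ref 2 the highest of all. At p under 0.05 alone, 19 members were higher with all libraries, 25 without Ctr 2 and 12 without Ref 2.

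**Figure D2:**
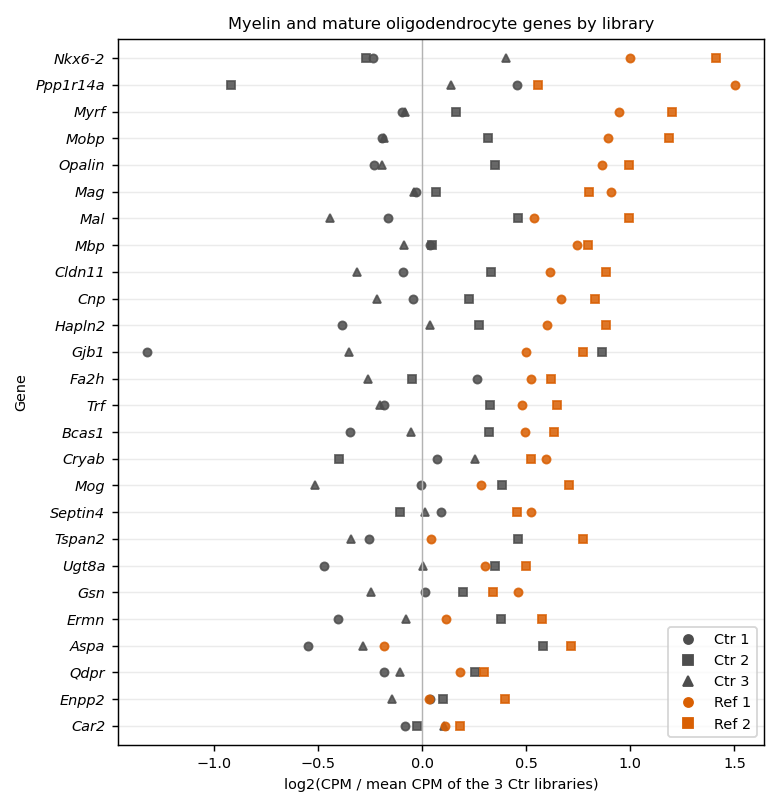
Each row is 1 of 26 genes of the myelin list, and the x axis is the log2 ratio of its CPM in a library to the mean CPM of the 3 Ctr libraries. Orange Ref points lie to the right of all grey Ctr points in 18 rows, and the square of Ctr 2 is often the nearest grey point.

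Part of the astrocyte and precursor markers were also higher in Ref. Of 15 astrocyte genes, 8 were higher and 0 lower, with a median log2 fold change of 0.31. Glul, the glutamine synthetase of astrocytes, had 1430.1, 1529.9 and 1387 CPM in Ctr and 1870.2 and 2032 in Ref (log2 fold change 0.43 ± 0.12). Aldoc, an aldolase of astrocytes, was 0.48 ± 0.13 higher and Acsbg1, an acyl-CoA synthetase, 0.49 ± 0.13, with no overlap between groups. The gap junction gene Gja1 (0.37 ± 0.13), the glutamate transporter gene Slc1a2 (0.40 ± 0.15), Aldh1l1, Fgfr3 and Clu were the other higher members. Gfap, the intermediate filament of reactive astrocytes, had 156, 216 and 120 CPM in Ctr and 196 and 143 in Ref, and Aqp4, the water channel, 163, 243 and 182 against 162 and 221, so both overlapped. Of 12 oligodendrocyte precursor genes, 4 were higher, namely the proteoglycan genes Cspg4 (0.69 ± 0.22) and Vcan (0.48 ± 0.18), the lineage factor gene Olig1 (0.46 ± 0.15) and Gpr17 (0.36 ± 0.16). The precursor receptor gene Pdgfra, at a log2 fold change of 0.23, was not among them. At p under 0.05 alone, the astrocyte list had 8 higher members with all libraries, 4 without Ref 1 and 5 without Ctr 1, Ctr 3 or Ref 2, and the precursor list had 4, falling to 1 without Ref 1 and 2 without Ref 2.

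Endothelial and microglial lists held fewer calls. Of 20 endothelial and mural genes, 3 were higher, the glucose transporter gene Slc2a1 (0.45 ± 0.14), the efflux pump gene Abcb1a (0.45 ± 0.15) and Flt1, a receptor for vascular growth factors (0.38 ± 0.16). Without Ref 2 only Slc2a1 passed p under 0.05, and the median of the list went from 0.19 to 0.079. Of 16 microglial genes only Sall1, a transcription factor, was higher (0.49 ± 0.20), and it did not pass without Ctr 1 or Ref 2. The median of 18 excitatory neuron genes was -0.01, with 4 lower and 1 higher. That of 15 inhibitory interneuron genes was -0.01, with 0 interneuron genes higher or lower. Slc17a7, the vesicular glutamate transporter of cortical excitatory neurons, had 1355, 1231 and 1164 CPM in Ctr and 1305 and 1180.1 in Ref.

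Relative to the mean of the Ctr libraries, the Ref libraries reached 138% and 170% for the myelin list, 120% and 138% for the astrocyte list and 123% in both for the precursor list. The excitatory neuron list stood at 106% in both Ref libraries, within the Ctr range of 91.5% to 106%. The inhibitory interneuron list stood at 95.5% and 89.1% in Ref, below the Ctr range of 98.7% to 102.5%. Genes of the choroid plexus summed to 3.68 to 8.59 CPM in every library, so that tissue was near 0 throughout. Meningeal fibroblast genes summed to 447 to 584 CPM in Ctr and 514 and 416 in Ref. Genes of thalamus and olfactory bulb gave 0 calls among 5 tested, and those of striatal projection neurons 0 among 10. The striatal list summed to 124% of the Ctr mean in Ref 1 and 91.9% in Ref 2, against 94.4% to 103% in Ctr. The thalamus and olfactory bulb list stood at 105% and 108% in Ref, within the Ctr range of 88.3% to 123%. Red blood cell genes gave 1 lower call among 5, the globin gene Hbb-bt, which did not pass without Ctr 2, Ref 1 or Ref 2. The part of oligodendrocyte or astrocyte content in the differences of this comparison was not tested.

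**Figure D3:**
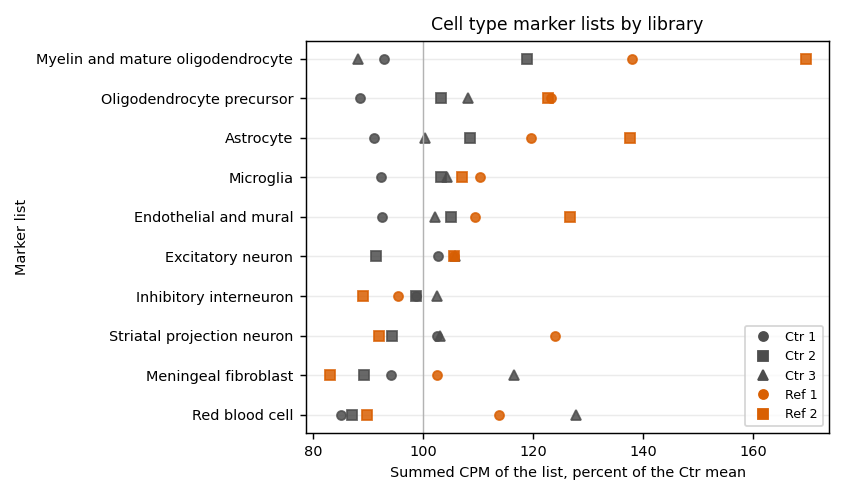
Each row is a marker list and each point the summed CPM of its genes in 1 library, in percent of the mean of the 3 Ctr libraries. Both Ref libraries lie to the right of all Ctr libraries for the myelin, precursor, astrocyte, microglia and endothelial lists, and to the left for the inhibitory interneuron list.

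Genes that make the lipids of membranes and myelin were higher more often than the background. Of 20 genes of sphingolipid and fatty acid synthesis, 5 were higher and 0 lower, with a median log2 fold change of 0.27. They were Fa2h, which hydroxylates the fatty acids of myelin lipids (0.57 ± 0.19), Srebf1, a regulator of lipid synthesis (0.49 ± 0.14), Cers2, a ceramide synthase (0.43 ± 0.15), the fatty acid synthase gene Fasn (0.36 ± 0.15) and the desaturase gene Scd2 (0.30 ± 0.11). Scd2 had 2089.97, 2255 and 2107 CPM in Ctr and 2525 and 2756 in Ref. Fa2h was also a member of the myelin list. By contrast, 22 genes of cholesterol synthesis gave 0 calls and a median of 0.01. Without either Ref library, 3 members of the sphingolipid and fatty acid list were higher at p under 0.05, against 6 with all libraries. The difference between the lipid groups was not tested.

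Among 12 genes of the axon initial segment and node of Ranvier, Cntn2, an adhesion protein that lies beside the node, was the only call. It had 83.0, 110 and 82.1 CPM in Ctr and 121 and 137 in Ref (log2 fold change 0.49 ± 0.16), with a median of 0.19 over the list, and it did not pass without Ref 2.

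Immediate early genes differed in both directions. Of 24, 5 were lower and 4 were higher, and the median log2 fold change was -0.11. Npas4, a neuronal transcription factor switched on by calcium entry, had 32.0, 21.04 and 24.5 CPM in Ctr and 8.75 and 8.95 in Ref, or 419 to 623 counts against 178 and 170. Both Ref libraries were far below the lowest Ctr library. Its log2 fold change was -1.55 ± 0.23, with the smallest p of all genes tested (edgeR adjusted p = 0.0967, DESeq2 adjusted p = 2.69e-06), a level 2.92-fold lower in Ref. Egr1, a zinc finger factor, had 575, 444 and 408 CPM in Ctr and 308 and 304 in Ref (-0.64 ± 0.16). Homer1, a scaffold of the postsynaptic density, had 367, 428 and 328 CPM in Ctr and 258 and 271 in Ref (-0.50 ± 0.14). Bdnf, a neurotrophin, stood at -0.59 ± 0.19 and Egr2 at -0.65 ± 0.27. For Egr2 the groups were close, at 27.6, 16.4 and 14.6 CPM in Ctr against 13.5 and 11.4 in Ref. Egr2 did not pass p under 0.05 without Ctr 1, Ref 1 or Ref 2, and Bdnf did not without Ref 1.

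The 4 higher members were the Krüppel-like factor genes Klf2 and Klf4, the AP-1 subunit gene Jun and the growth arrest gene Btg2. Klf2 had 34.0, 19.1 and 30.4 CPM in Ctr and 72.6 and 46.3 in Ref (1.09 ± 0.24). Klf4 had 17.2, 10.1 and 10.9 CPM in Ctr and 28.8 and 22.1 in Ref (1.00 ± 0.24). In both genes Ref 1 was the highest library. Jun (0.34 ± 0.14) and Btg2 (0.37 ± 0.17) were higher by less. Jun did not pass p under 0.05 without Ctr 1, Ctr 3 or Ref 1, and Btg2 did not without Ctr 2, Ctr 3, Ref 1 or Ref 2. Atf3, a stress-induced factor, did not overlap between groups, at 0.514, 2.71 and 1.30 CPM in Ctr and 3.83 and 2.95 in Ref, but missed p under 0.05 with all libraries. Fos had 60.2, 49.2 and 46.8 CPM in Ctr and 41.3 and 53.0 in Ref, and Arc, a regulator of synaptic receptors, had 319, 247 and 173 against 231 and 231. Fosb, Junb, Egr3, Egr4, Nr4a1, Nr4a2 and Nr4a3 also overlapped between groups. The median of the list changed sign without Ctr 1, at 0.02. At p under 0.05 alone, 8 members were lower and 2 higher without Ctr 3, and 3 were lower and 2 higher without Ref 1.

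Of 16 genes of the glucocorticoid response list, which holds known targets of the hormone and the 2 receptor genes Nr3c1 and Nr3c2, 5 were higher and 0 lower, and the median log2 fold change was 0.32. Fkbp5, a chaperone partner of the glucocorticoid receptor, had 24.3, 21.1 and 18.1 CPM in Ctr and 40.4 and 36.0 in Ref (0.85 ± 0.18, edgeR adjusted p = 0.443, DESeq2 adjusted p = 0.0215). Zbtb16, a transcription factor, had 23.1, 24.1 and 26.9 CPM in Ctr and 44.8 and 41.4 in Ref (0.80 ± 0.16, edgeR adjusted p = 0.334, DESeq2 adjusted p = 0.00933). Sgk1, a kinase that acts on ion transport, had 108, 137 and 71.9 CPM in Ctr and 168 and 187 in Ref (0.75 ± 0.21). For each of these genes the lowest Ref library was above the highest Ctr library. Plin4, a lipid droplet coat protein, was at 1.15 ± 0.42 and Nfkbia, an inhibitor of NF-kappaB, at 0.38 ± 0.17. Plin4 did not pass p under 0.05 without Ref 2, and Nfkbia did not without Ctr 3, Ref 1 or Ref 2. Tsc22d3 had 101, 76.7 and 51.3 CPM in Ctr and 140 and 101 in Ref, so Ctr 1 met the level of Ref 2. Klf9, Mt1, Cdkn1a and Errfi1 had log2 fold changes between -0.02 and 0.16. Nr3c1, the receptor itself, was at -0.08 and Nr3c2, the mineralocorticoid receptor gene, at -0.06. At p under 0.05 alone, 6 members were higher with all libraries and 4 without Ctr 3 or without Ref 1. Sgk1 is also expressed by oligodendrocytes, whose markers were higher in the same libraries, and their part in its level was not tested.

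**Figure D4:**
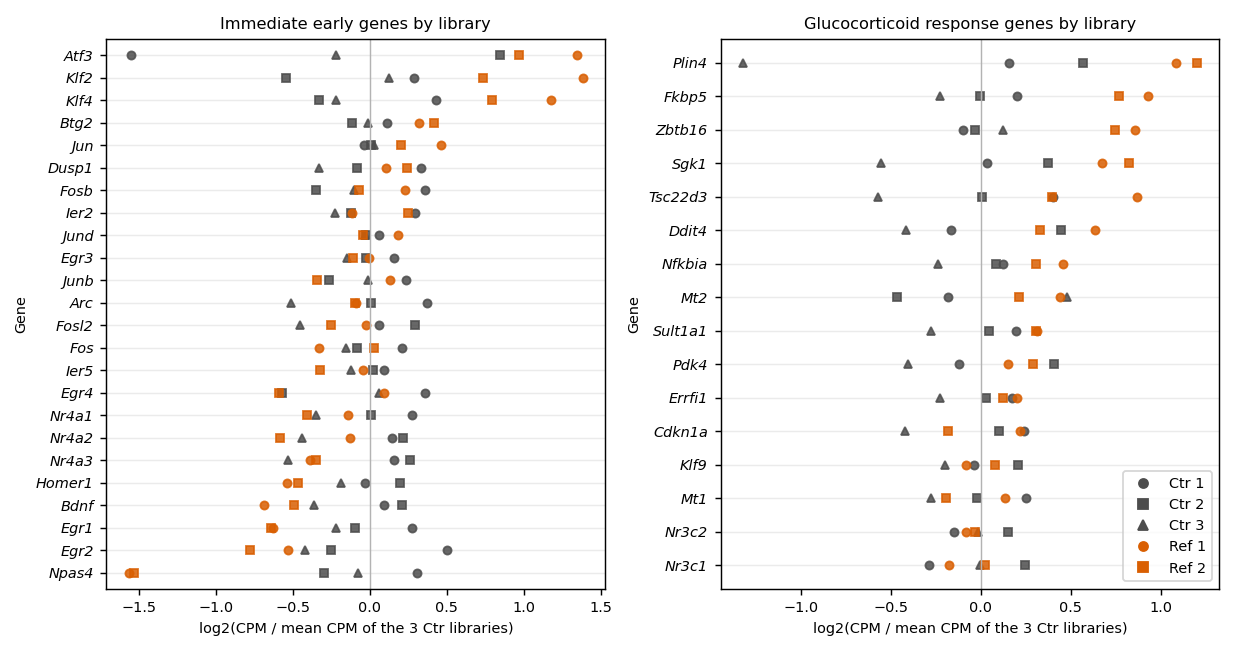
Each row is a gene of the immediate early list (left, 24 genes) or the glucocorticoid response list (right, 16 genes), with the log2 ratio of its CPM to the mean of the 3 Ctr libraries on the x axis. Npas4 stands apart at the lower left with both Ref points near -1.5, and Fkbp5, Zbtb16 and Sgk1 have both Ref points to the right of all Ctr points.

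The promoters of both lists were searched on both strands for letters known from such genes, in the 250 bases before each RefSeq start (GRCm38.p6). The motifs were TGACGTCA, the cAMP response element, the palindromic glucocorticoid response element, with half-sites GNACA and TGTNC spaced by 3 bases, and the CArG box. TGACGTCA was in 1.77% of the promoters of 27025 genes, the glucocorticoid response element in 0.44% and the CArG box in 1.62%. Of the 20 immediate early genes with a promoter in the table, 2 held TGACGTCA, 1 the glucocorticoid response element and 1 the CArG box. Of 14 glucocorticoid genes with a promoter, 2 held the glucocorticoid response element, 1 TGACGTCA and 0 the CArG box. Of 18 myelin genes with a promoter, 1 held the CArG box (5.56%), a share like that of the immediate early list (5.0%), and 0 held either other motif. Genes with several starts were counted once, when any of their windows held the motif. The 3 promoters printed here belong to members called higher or lower that held a match, with the matched letters in capitals. Each is given 5′ to 3′ on the strand of its gene, as Sgk1 at chr10:21993640-21993889 on the plus strand, Egr2 at chr10:67537619-67537868 on the plus strand and Btg2 at chr1:134079156-134079405 on the minus strand.
Sgk1 (glucocorticoid response element): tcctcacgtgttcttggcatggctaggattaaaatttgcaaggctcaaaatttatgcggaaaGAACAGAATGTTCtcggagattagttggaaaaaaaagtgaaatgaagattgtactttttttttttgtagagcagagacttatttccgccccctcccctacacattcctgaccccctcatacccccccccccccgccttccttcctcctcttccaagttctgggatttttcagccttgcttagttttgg
Egr2 (CArG box): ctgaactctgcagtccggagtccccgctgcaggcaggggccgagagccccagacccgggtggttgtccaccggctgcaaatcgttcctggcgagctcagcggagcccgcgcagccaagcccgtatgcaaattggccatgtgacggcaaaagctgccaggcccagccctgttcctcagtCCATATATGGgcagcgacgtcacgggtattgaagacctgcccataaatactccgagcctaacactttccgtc
Btg2 (TGACGTCA): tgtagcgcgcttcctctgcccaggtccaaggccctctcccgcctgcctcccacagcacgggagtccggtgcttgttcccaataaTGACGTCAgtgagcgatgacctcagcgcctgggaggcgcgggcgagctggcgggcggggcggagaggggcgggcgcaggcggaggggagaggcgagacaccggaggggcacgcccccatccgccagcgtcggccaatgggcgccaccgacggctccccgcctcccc
In the printed windows the matches lay 188 bases before the start of Sgk1, 72 before that of Egr2 and 166 before that of Btg2, counted to their first base. The element was in 1 of 6 start windows of Sgk1, and a CArG box was in 4 of 5 of Egr2. The overlapping Egr2 windows share the same CCATATATGG, and the remaining match is CCTTTTTTGG, so these are not separate boxes in each window. Btg2 had 1 window. Sgk1 and Btg2 were higher in Ref and Egr2 was lower. A match is a stretch of letters and not a measured binding site.

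Of 18 genes of excitatory neuron identity, 4 were called lower and 1 higher. Across the list, 8 log2 fold changes were positive and 10 negative, with a median of -0.01. Neurod6, a transcription factor of pyramidal neurons, had 129, 93.9 and 107 CPM in Ctr and 72.7 and 78.3 in Ref (-0.54 ± 0.16). Foxp2 (-0.48 ± 0.17) and Tle4 (-0.33 ± 0.15), factors of deep cortical layers, were lower too. Cux1, a factor of upper layers, was higher, at 51.5, 50.6 and 52.8 CPM in Ctr and 62.1 and 66.3 in Ref. Cux2, Rorb, Bcl11b, Fezf2 and Tbr1 overlapped between groups. Tle4 did not pass p under 0.05 without Ctr 1, Ctr 2, Ref 1 or Ref 2, nor Foxp2 without Ref 1, and Cux1 did not pass when any library was left out. Without Ref 1, 1 member was lower at that p.

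Among synaptic receptors, the calls were few and mostly lower. Of 14 GABA receptor genes 2 were lower, among them the subunit gene Gabra4 (-0.37 ± 0.15). Gabra4 had 172, 188 and 158 CPM in Ctr and 120 and 147 in Ref. It did not pass p under 0.05 without Ctr 2 or without Ref 1. Of 22 glutamate receptor genes, the AMPA receptor subunit gene Gria2 was lower, with 743, 903 and 776 CPM in Ctr and 576 and 692 in Ref (-0.35 ± 0.14). The NMDA receptor subunit gene Grin2c was higher, with 55.4, 54.0 and 61.3 CPM in Ctr and 72.1 and 80.4 in Ref (0.42 ± 0.14). Gria2 did not pass p under 0.05 without Ctr 2 or Ref 1, nor Grin2c without Ref 2. Of 28 monoamine and acetylcholine receptor genes, the serotonin receptor gene Htr2c (-0.50 ± 0.18) and the adrenergic receptor gene Adrb1 (-0.33 ± 0.15) were lower. Without Ref 2 neither passed p under 0.05, and Adrb1 did not pass without Ctr 2, Ctr 3 or Ref 1 either. Cnr1, the cannabinoid receptor gene of many presynaptic terminals, was in no list and had the second smallest p among the named lower genes. It had 228, 256 and 226 CPM in Ctr and 158 and 154 in Ref (-0.60 ± 0.13, edgeR adjusted p = 0.495, DESeq2 adjusted p = 0.00579), so the groups were apart.

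Genes of transmitter release and excitability were higher and lower. Of 28 genes of vesicle release, Vamp1, a vesicle fusion protein, Syt2, a fast calcium sensor, and Sv2c, a vesicle glycoprotein, were higher, and Syt4 and Sv2b were lower. Vamp1 had 43.3, 40.9 and 35.8 CPM in Ctr and 57.6 and 73.4 in Ref (0.71 ± 0.16). Syt4, another synaptotagmin, had 404, 408 and 353 CPM in Ctr and 272 and 308 in Ref (-0.42 ± 0.13). Of 37 voltage-gated channel genes, 2 were higher, Scn4b among them, and 0 were lower. Scn4b, a sodium channel beta subunit, was tight in Ctr at 42.7, 43.3 and 41.8 CPM and stood at 65.2 and 79.0 in Ref (0.76 ± 0.15, edgeR adjusted p = 0.311, DESeq2 adjusted p = 0.00394). By p under 0.05 alone, 4 channel genes were higher with all libraries and 2 without Ctr 1 or without Ref 2. At p under 0.05 alone, vesicle release genes had 3 higher and 2 lower members with all libraries, 3 and 0 without Ref 1, 1 and 1 without Ref 2, and 6 and 4 without Ctr 3. Kif5a, a neuronal kinesin motor named here after its values were seen, had 2629, 2662 and 3453 CPM in Ctr and 4114 and 4481 in Ref (0.56 ± 0.14, edgeR adjusted p = 0.542, DESeq2 adjusted p = 0.0357).

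Of 17 neuropeptide genes tested out of 18, 2 were lower. Adcyap1, the precursor of a peptide that stimulates cAMP production, had 39.2, 32.5 and 32.9 CPM in Ctr and 21.8 and 27.8 in Ref (-0.49 ± 0.18). Crh, the corticotropin-releasing hormone gene, had 1.95, 3.26 and 2.88 CPM in Ctr and 1.13 and 0.737 in Ref (-1.52 ± 0.57), at low counts. Adcyap1 did not pass p under 0.05 without Ctr 1 or Ref 1, nor Crh without Ctr 3 or Ref 2. Among 44 synaptic adhesion genes Cntn2 was higher, and Flrt2 (-0.37 ± 0.16) and Flrt3 (-0.45 ± 0.18), leucine-rich ligands of latrophilins, were lower. At p under 0.05 alone, 2 adhesion genes were lower with all libraries, 0 without Ref 1 and 5 without Ctr 1 or without Ref 2.

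Outside these lists, the higher genes of smallest p included Arrdc2, an arrestin-domain protein, with 4.01, 6.88 and 5.56 CPM in Ctr and 15.1 and 13.6 in Ref (1.39 ± 0.26). Etnppl, an enzyme of phosphoethanolamine breakdown found in astrocytes, had 24.5, 31.4 and 16.0 CPM in Ctr and 50.4 and 53.6 in Ref (1.12 ± 0.23). Sik1, a salt-inducible kinase, had 22.04, 15.2 and 15.7 CPM in Ctr and 35.4 and 32.1 in Ref (0.94 ± 0.20). All 3 were free of overlap. Their DESeq2 adjusted p was 0.0123, 0.00559 and 0.0230, and their edgeR adjusted p was 0.311, 0.334 and 0.455. Plekhg3, a guanine nucleotide exchange factor, was at 0.88 ± 0.19. Among lower genes, Scn7a, a sodium-sensing channel, had 12.02, 15.2 and 10.7 CPM in Ctr and 6.93 and 4.95 in Ref (-1.09 ± 0.27). Slc13a4, a sulfate transporter of the meninges, had 13.2, 11.0 and 16.7 CPM in Ctr and 6.88 and 7.10 in Ref (-0.97 ± 0.25), and it was the only call among 12 meningeal fibroblast genes. Vxn, a gene of neuronal differentiation, had 627, 625 and 600 CPM in Ctr and 444 and 454 in Ref (-0.46 ± 0.12, edgeR adjusted p = 0.669, DESeq2 adjusted p = 0.0477). Fgf10, a fibroblast growth factor (-0.83 ± 0.23), Dtl, a subunit of a ubiquitin ligase (-0.95 ± 0.27), Rab24, a small GTPase (-0.86 ± 0.23), Atp5md, a subunit of ATP synthase (-0.78 ± 0.19), Zik1, a zinc finger protein (-0.76 ± 0.19), Hspa13, a chaperone (-0.52 ± 0.15), Pter (-0.48 ± 0.13) and the long noncoding RNA Dbpht2 (-0.54 ± 0.15) were lower as well. Dtl did not pass p under 0.05 without Ref 2, nor Dbpht2 without Ref 1.

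Of 7 genes tied to the transcript or named by the study, 1 was lower and 0 were higher. Zgpat, a zinc finger repressor, had 14.95, 22.2 and 17.9 CPM in Ctr and 13.4 and 11.7 in Ref (-0.55 ± 0.22, edgeR adjusted p = 0.83). Acvr2b, an activin receptor gene, had 2.52, 2.26 and 4.03 CPM in Ctr and 5.31 and 4.16 in Ref, which did not overlap, with a log2 fold change of 0.69 and an edgeR adjusted p of 0.872. Paxip1, the mouse gene whose human counterpart neighbours the transcript, had 36.8, 41.0 and 51.7 CPM in Ctr and 43.8 and 49.3 in Ref. Cntnap3 (0.47 ± 0.38), Ttc28 (0.35 ± 0.20), Cebpb (0.67 ± 0.41) and Smc3 (-0.14 ± 0.17) overlapped between groups. The study drew Cntnap3, Acvr2b and Ttc28 from genes that differed across the groups of this series, so their values are not independent of that choice. Zgpat did not pass p under 0.05 without Ctr 2, Ctr 3, Ref 1 or Ref 2. Without Ctr 3, 3 of the 7 were higher at that p, namely Acvr2b, Ttc28 and Cebpb, and 0 were lower.

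The G allele libraries were set beside those of the C allele for the genes named above, in an edgeR fit of all 7 libraries whose CPM differ slightly from those of the fit of 5. The Ref libraries enter both comparisons and the genes were chosen for their difference from Ctr, so the p-values of Ref against Alt are not independent of it. Mbp had 523 and 584 CPM in Alt, below all Ctr and Ref libraries, and Ref exceeded Alt by 1.29 ± 0.16 on the log2 scale (edgeR adjusted p = 0.0481). Mag had 38.2 and 40.2 CPM in Alt, also below all other libraries (Ref minus Alt 1.25 ± 0.17, edgeR adjusted p = 0.0615). Arrdc2 had 4.55 and 4.96 CPM in Alt, within the Ctr range. Cnr1 had 271 and 223 CPM in Alt, where Alt 1 lay above all Ctr libraries and Alt 2 between them. Ref minus Alt was 1.57 ± 0.33 for Arrdc2 and -0.69 ± 0.17 for Cnr1. Homer1 had 358 and 360 CPM in Alt, between the Ctr libraries. Some calls of Ref against Ctr did not pass p under 0.05 in the fit of 7, among them Rab24, Gpr17, Slc1a2, Fgfr3, Clu, Hbb-bt, Cux1, Foxp2, Tle4, Fasn, Jun, Egr2, Btg2, Nfkbia, Flrt2, Sv2b, Sv2c, Gria2, Htr2c, Adrb1 and Zgpat.

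Other genes had Alt values near those of Ref. Npas4 had 5.53 and 11.6 CPM in Alt, with a Ref minus Alt difference of 0.02 ± 0.34. Sik1 had 31.2 and 40.2 CPM in Alt (-0.11 ± 0.24) and Zbtb16 44.7 and 31.4 (0.16 ± 0.21). Egr1 had 218 and 408 CPM in Alt and Myrf 58.6 and 29.5, so the Alt libraries themselves stood far apart for these genes.

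**Figure D5:**
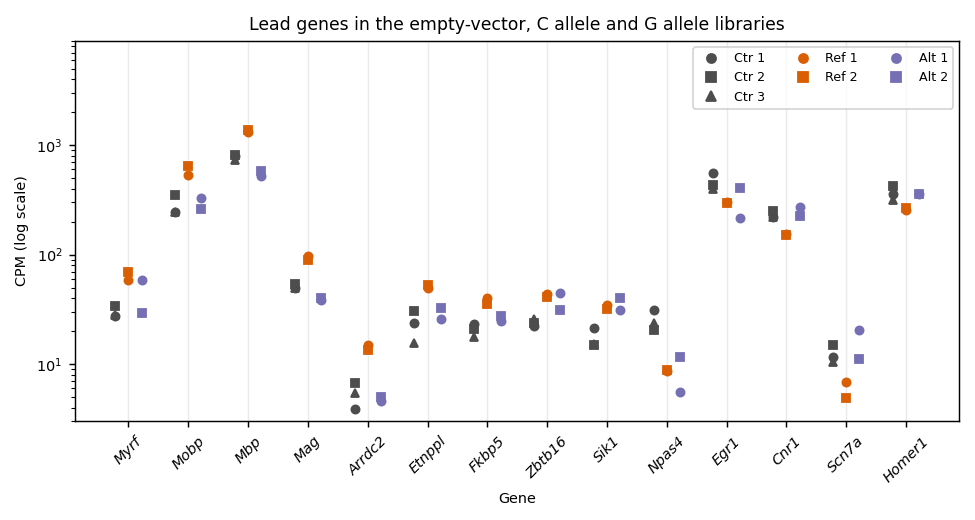
CPM on a log scale (y) of 14 lead genes (x) in each of the 7 libraries, coloured by vector. For Mbp, Mag, Arrdc2 and Cnr1 the Alt libraries lie away from the Ref libraries, and for Npas4 and Sik1 Alt and Ref lie on the same side of Ctr.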

How the data were processed

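Raw counts per gene were deposited as whole numbers in one table of 55416 mouse genes; the submitters' notes name STAR and featureCounts without versions. They list a human build beside mouse identifiers, so the build is not given in the sources used here and no coordinates of the files are printed. The FPKM and TPM values that the authors deposited in the same table were not used. Libraries were strand-marked polyadenylated RNA; the strand setting of the counting is not given, so overlapping genes may share reads.

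Counts of the 5 libraries were normalised by TMM and tested with the quasi-likelihood fit of edgeR 4.0.16 (R 4.3.3) after filterByExpr, with Benjamini-Hochberg adjustment over all 16622 genes. CPM are TMM-normalised. Alternatives were DESeq2 1.42.0, other size factors, no filter, a gene length correction, robust fitting, all 7 libraries, a replicate block and leaving out each library; the scripts were tested on simulated data. The study's methods name no design for this pair, and Alt was kept out since its libraries differ more from each other (chi-square per degree of freedom 59.9). Named genes were the 15 higher and 15 lower of smallest p whose groups did not overlap, with a mean CPM of at least 1 (Gm, Rik, numbered clone and pseudogene names and the Y chromosome left out), up to 6 calls per list, and the study genes; other list members named with values, and Kif5a and Gm28438, were chosen after their values were seen. Within groups, the chi-square per degree of freedom between libraries was 19.1 to 25.8, above sampling noise, so no pair looked like a repeat deposit. The comparison, the 31 gene lists and the rule were chosen with earlier results of these data known. Promoter letters came from RefSeq (GRCm38.p6), matched by symbol. Values of some list members are not reported here, though they stay in the counts.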

Additional observations from a re-analysis of the deposited data

How the results depend on the processing

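Genes at an adjusted p under 0.05 numbered 22 with DESeq2, 100 without a low-count filter, 223 with the replicate number as a block and between 0 and 22 when one library was left out (22 without Ctr replicate 2, 3 without Ref replicate 1). At an unadjusted p under 0.05 the count was 541 with all 7 libraries in the fit, 2549 with the replicate block and 550 to 1211 with one library left out (550 without either Ref library). Genes beyond all Ctr libraries and under that p numbered 519 with all 7 libraries, 1506 with the replicate block and 546 to 1203 with one left out (546 without Ref replicate 1, 548 without Ref replicate 2). Genes higher in Ref made up 56.3% of those at p under 0.05, against 69.9% with all 7 libraries, 66.7% without the filter, 69.2% without Ctr replicate 2 and 34.1% with the length correction. The deviations of same-numbered libraries correlated at 0.0531 and 0.0800. With 2 Ref libraries, the deviations of Ref 1 and Ref 2 mirror each other. These values therefore cannot show whether replicate numbers pair the libraries, and the block only shows how the counts move.

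Of the 93 genes named by rule, 92 kept their direction in every alternative; the exception was Smc3, at 0.0405 without Ctr replicate 2. Of these 93, 22 lost p under 0.05 with all 7 libraries in the fit and 32 without Ref replicate 1, which leaves a single Ref library assumed to vary like the rest. List medians for myelin ran from 0.52 to 0.78 with one library left out. Other medians moved by more than the spread between libraries. With one library left out they ran from 0.26 to 0.40 (astrocyte), -1.31 to -0.29 (choroid plexus), -0.25 to 0.24 (red blood cell), -0.20 to 0.077 (interneuron), -0.17 to 0.50 (striatal), -0.00281 to 0.17 (cholesterol), 0.19 to 0.27 (sphingolipid and fatty acid), -0.12 to 0.37 (mitochondrial DNA), -0.11 to -0.00944 (glutamate receptor), -0.24 to -0.0174 (GABA receptor) and -0.23 to 0.10 (neuropeptide). The sphingolipid and fatty acid median was 0.22 with the length correction and 0.20 with the replicate block. The clock median ran from -0.0715 to 0.0116 and was 0.0116 without Ctr replicate 1 and 4.35e-06 without Ctr replicate 2. The causes were not tested.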

Other observations

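The calls of further gene groups were as follows. Heat shock genes, which encode chaperones, had negative log2 fold changes in 14 of 16 members and a median of -0.20. Summed, they stood at 87.4% and 86.1% of the Ctr mean in Ref, below all Ctr libraries. The 2 lower calls, Hsp90aa1 (-0.31 ± 0.13) and Hsph1 (-0.28 ± 0.12), made 12.5% of the list, against 2.31% of all genes tested. Hsp90aa1 had 1463, 1428 and 1209 CPM in Ctr and 1059 and 1147 in Ref. Neither passed p under 0.05 without Ctr 1, Ctr 2, Ref 1 or Ref 2. Nuclear genes of the respiratory chain gave 0 calls among 75 and a median of -0.05, which ran from -0.13 without Ref 1 to 0.048 without Ctr 1. By p under 0.05 alone, 0 of them were lower, against 3 without Ctr 3 and 6 with the gene length correction. Circadian clock genes gave 0 calls among 16 and a median of -0.06. Interferon response and antigen presentation genes gave 1 higher call among 24, the histocompatibility gene H2-D1 (0.46 ± 0.17), which did not pass p under 0.05 without Ctr 1, Ctr 3 or Ref 2. Cytosolic ribosomal protein genes gave 3 higher calls (Rpl7a, Rpl30 and Rps23) and 1 lower (Rps21) among 79, and reads of this family may be shared with pseudogenes. Of these only Rpl7a passed with every library left out in turn. Of this family, 6 were lower at p under 0.05 alone with all libraries, 1 without Ctr 1, 2 without Ref 1 and 10 without Ctr 3.

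Transcripts of the mitochondrial genome were uneven. Of 13 protein genes, mt-Atp6 and mt-Nd4l were higher, mt-Nd4l not without Ref 2, and the median log2 fold change was 0.14. It was -0.12 without Ref 2 and 0.37 without Ref 1, where 7 of the 13 were higher at p under 0.05, and 4 were without Ctr 2. mt-Atp6, a subunit of ATP synthase, had 200, 438 and 249 CPM in Ctr and 673 and 723 in Ref (1.24 ± 0.24, DESeq2 adjusted p = 0.376). The transfer RNA mt-Ta had 4.21, 1.71 and 3.45 CPM in Ctr and 11.4 and 12.5 in Ref (1.93 ± 0.34, edgeR adjusted p = 0.177, DESeq2 adjusted p = 0.00178), as measured in polyadenylated libraries. Reads of these genes may be shared with near-identical nuclear copies: the pseudogene Gm28438, named after its values were seen, had 8.53, 12.2 and 8.83 CPM in Ctr, 20.6 in Ref 1 and 143 in Ref 2. All mitochondrial genes tested made up 13.6%, 14.2% and 12.2% of counts in Ctr and 12.2% and 16.6% in Ref, so the groups overlapped.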
